A study of Mus musculus with 12 samples.

Results

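Lactate and pyruvate handling was read here from 10 mouse genes among the 54532 genes measured: the lactate dehydrogenase subunits Ldha and Ldhb, the monocarboxylate transporters Slc16a1 and Slc16a3, the mitochondrial pyruvate carrier subunits Mpc1 and Mpc2, and the pyruvate dehydrogenase kinases Pdk1, Pdk2, Pdk3 and Pdk4. The set was chosen by the measured levels of Ldhb, which moved in opposite directions in the study's experiments, so Ldhb is given as a description with no test. Poly(A)-selected RNA of mouse melanoma cell lines was sequenced in 12 libraries, 3 in each of 4 groups. All 4 groups share a BRAFV600E mutation, and all grew under puromycin selection (1 ug/mL) in DMEM that held 10% FBS. NTC is a non-targeted control and Gli2CA carries an active mutation of Gli2, a transcription factor of the Hedgehog pathway. Cas9-NTC is the non-targeted control of a CRISPR Cas9 experiment and Cas9-Gli2KO is labelled as the Gli2 knockout, called the knockout-labelled libraries here, and both also received blasticidin (10 ug/mL). The sources used here name neither the Gli2 mutation nor the edited site, and do not say whether a line is 1 clone. They do not say either that replicate libraries are separate cultures. A p-value therefore measures only how these libraries vary, which may be technical.

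Levels are FPKM, which divides reads by the length of the gene and the total of the library, given as mean ± SD with n = 3 libraries. The depth recovered from the values was 15972800 to 25983200 reads per library. Gli2 RNA was higher in the knockout-labelled libraries than in Cas9-NTC. It had 29, 61 and 42 reads in Cas9-NTC and 130, 140 and 345 reads in the knockout-labelled libraries, while no NTC or Gli2CA library had more than 5. The Gli2 mutation and the edited site are not named, so these levels do not test the labels. Pigment cell markers were mostly absent. Dct, Tyrp1 and Slc45a2, which act in melanin synthesis, were at 0 in every library, and Sox10, a neural crest factor, was at most 0.058 FPKM in Cas9 libraries but lay at 155 to 197 in the others. The sum of the 12 melanocyte markers was 4.81 to 6.3 FPKM for the Cas9 groups and 162 to 205 for the others. A macrophage marker, Cd68, lay at 1.12 to 1.93 FPKM in NTC, 6.59 to 8.12 in Gli2CA, 9.06 to 9.47 in Cas9-NTC and 1.47 to 1.96 in the knockout-labelled libraries, while no other of the 10 leukocyte markers passed 1.07 FPKM and Cd3e was at 0 throughout. The 10 markers summed to 1.74 to 2.66, 7.17 to 8.85, 9.58 to 9.73 and 1.71 to 2.3 FPKM in the same order. Sums of 6 endothelial markers were 4.49 to 5.4, 20.4 to 23.1, 10.2 to 11.4 and 8.34 to 24.6 FPKM in that order. Flt1 led them in Gli2CA, at 19.9 to 22.6 against 4.41 to 5.29 in NTC, and Cdh5 lay at 6.17 to 19.3 in the knockout-labelled libraries against 2.47 to 2.99 in Cas9-NTC, while Pecam1 was at no more than 0.0615. Sums of 8 fibroblast markers were 5.58 to 7.26, 5.6 to 6.3, 15.9 to 16.1 and 26.5 to 28.4 FPKM. Of these Fap was at 0 in NTC and Gli2CA, at 5.7 to 6.42 in Cas9-NTC and at 12.7 to 19.8 in the knockout-labelled libraries, where Pdgfrb reached 14.1, while Lum was at 0 throughout. Those of 6 keratinocyte markers stayed between 1.26 and 3.57 FPKM, with Krt1 at 0 throughout. The part of these marker levels in the results below was not tested.

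Pyruvate is the end product of glycolysis, and a cell can reduce it to lactate in the cytosol or oxidise it in mitochondria. Lactate dehydrogenase is a tetramer of A and B subunits that interconverts both acids, and the monocarboxylate transporters carry lactate across the plasma membrane. The mitochondrial pyruvate carrier is a heterodimer of Mpc1 and Mpc2, and the pyruvate dehydrogenase kinases switch off the enzyme complex that turns imported pyruvate into acetyl-CoA. Melanoma cells with active BRAF are known for high glycolysis and lactate output, and LDHA and PDK1 are textbook targets of the hypoxia-inducible factor HIF-1.

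The promoter windows of the 5 genes on which the comparisons turn are shown from RefSeq (GRCm38.p6), 250 bases before to 50 bases after the first listed start, on the strand of the gene. Capitals mark every match, on either strand, of ACGTG or GCGTG, the core of the hypoxia response element. The E-box CACGTG contains ACGTG on both strands and is counted once on each. Ldha lies at chr7:46845554-46845853, plus strand. Ldhb lies at chr6:142507908-142508207, minus strand. Slc16a1 lies at chr3:104638414-104638713, Pdk1 at chr2:71872974-71873273 and Mpc2 at chr1:165461010-165461309, all on the plus strand.
Ldha: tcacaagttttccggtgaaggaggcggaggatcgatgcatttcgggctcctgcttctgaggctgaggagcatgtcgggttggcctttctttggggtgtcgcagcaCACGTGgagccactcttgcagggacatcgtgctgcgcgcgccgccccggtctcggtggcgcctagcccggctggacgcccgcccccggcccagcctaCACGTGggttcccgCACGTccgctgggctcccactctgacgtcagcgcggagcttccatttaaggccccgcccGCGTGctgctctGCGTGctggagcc
Ldhb: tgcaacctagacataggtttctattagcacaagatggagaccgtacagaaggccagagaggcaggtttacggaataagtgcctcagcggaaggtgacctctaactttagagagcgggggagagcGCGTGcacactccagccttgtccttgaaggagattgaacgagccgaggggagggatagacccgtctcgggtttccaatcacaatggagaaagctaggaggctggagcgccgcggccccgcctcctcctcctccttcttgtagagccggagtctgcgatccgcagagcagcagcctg
Slc16a1: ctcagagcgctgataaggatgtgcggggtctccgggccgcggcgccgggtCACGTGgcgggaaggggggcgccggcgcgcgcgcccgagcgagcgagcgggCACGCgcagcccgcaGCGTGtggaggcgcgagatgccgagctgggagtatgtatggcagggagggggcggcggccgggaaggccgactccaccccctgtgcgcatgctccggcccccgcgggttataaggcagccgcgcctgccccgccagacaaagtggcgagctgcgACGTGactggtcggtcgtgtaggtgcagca
Pdk1: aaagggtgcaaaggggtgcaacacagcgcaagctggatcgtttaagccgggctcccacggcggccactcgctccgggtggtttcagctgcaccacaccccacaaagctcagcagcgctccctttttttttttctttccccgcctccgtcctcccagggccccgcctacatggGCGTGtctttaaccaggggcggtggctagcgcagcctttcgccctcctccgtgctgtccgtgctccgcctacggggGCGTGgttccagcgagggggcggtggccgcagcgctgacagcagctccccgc
Mpc2: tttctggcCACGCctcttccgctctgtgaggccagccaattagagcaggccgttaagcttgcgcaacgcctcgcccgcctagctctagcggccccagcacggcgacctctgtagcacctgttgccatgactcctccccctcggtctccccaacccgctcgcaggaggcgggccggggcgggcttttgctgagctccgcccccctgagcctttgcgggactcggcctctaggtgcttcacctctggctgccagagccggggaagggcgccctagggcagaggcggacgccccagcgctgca

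The Ldha window held 7 core matches, 5 of ACGTG and 2 of GCGTG, and that of Slc16a1 held 5, 3 of ACGTG and 2 of GCGTG. The Pdk1 window held 2 and those of Ldhb and Mpc2 held 1 each, all of GCGTG. First-start windows of all 10 genes had at least 1 core match, as did 43.8% of all 32851 listed windows of this length. The latter include further starts of a gene, so the sets are unlike and nothing is read from the shares. Of the 14 windows listed for the 10 genes, the second-start windows of Mpc1, Pdk1 and Pdk2 had 0 core matches and that of Ldha had 2. ACGTG was present in 19.6% of all windows, GCGTG in 32.4% and CACGTG in 7.15%. The letters GACCACCCA, the consensus site of GLI factors, had 0 matches in the 10 first-start windows and was present in 0.253% of all windows. A match of letters is a description of the window and says nothing about binding.

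The genes covered a wide range of levels. Ldha was the most abundant by far, at 538 to 954 FPKM in all 12 libraries. Slc16a1, Ldhb, Pdk1 and Pdk3 lay between 9.51 and 80.8 FPKM, Mpc1 and Mpc2 between 3.75 and 14, Pdk2 between 1.18 and 4.08. Slc16a3 never passed 0.281 FPKM, and Pdk4 was at or near 0 in NTC and Gli2CA. Of the 10 genes, 9 passed the filter on low values, which was at least 1 FPKM in at least 3 libraries and left 11860 genes in all. Pdk4 passed it only through the Cas9 groups.

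**Figure D1:**
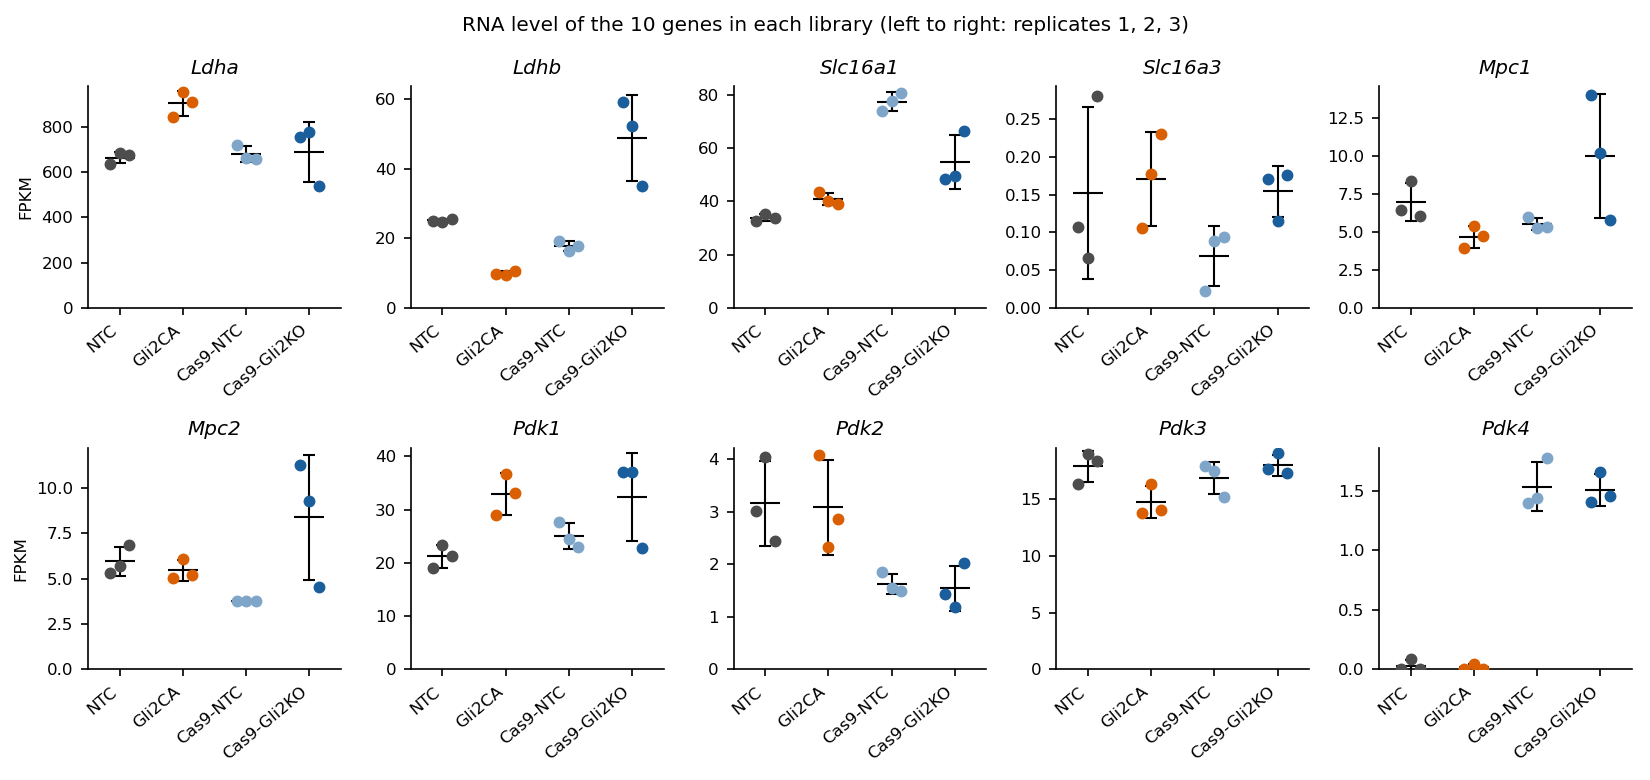
RNA level (FPKM, vertical axis, from 0) of each of the 10 genes in each of the 12 libraries, 1 panel per gene with its own scale. Points are libraries, the long line is the group mean and the bars are 1 SD. Ldhb is lowest in Gli2CA and highest in the knockout-labelled libraries with no overlap between groups, and for Mpc1, Mpc2 and Pdk1 the third library labelled Gli2 knockout sits below the other 2.

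The knockout-labelled libraries were not alike in these genes. Relative to the Cas9-NTC mean, Ldhb was 3.32-, 2.93- and 1.97-fold in libraries 1, 2 and 3. Mpc1 was 2.53-, 1.83- and 1.05-fold and Pdk1 1.48-, 1.48- and 0.907-fold. Slc16a1 was 0.623-, 0.64- and 0.859-fold. Mpc2 was 2.99-, 2.47- and 1.21-fold. For each of these genes library 3 was nearer to the control mean than the other 2, and for Pdk1 it was on its other side. Ldha was 1.11-, 1.14- and 0.79-fold and Pdk2 0.883-, 0.723- and 1.24-fold, with library 3 also on the other side. Over all genes tested, library 3 was off its group mean by more than 0.5 on the log2 scale in 2402 genes, library 1 in 831 and library 2 in 134. Library 3 also had the most Gli2 reads, 345.

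**Figure D2:**
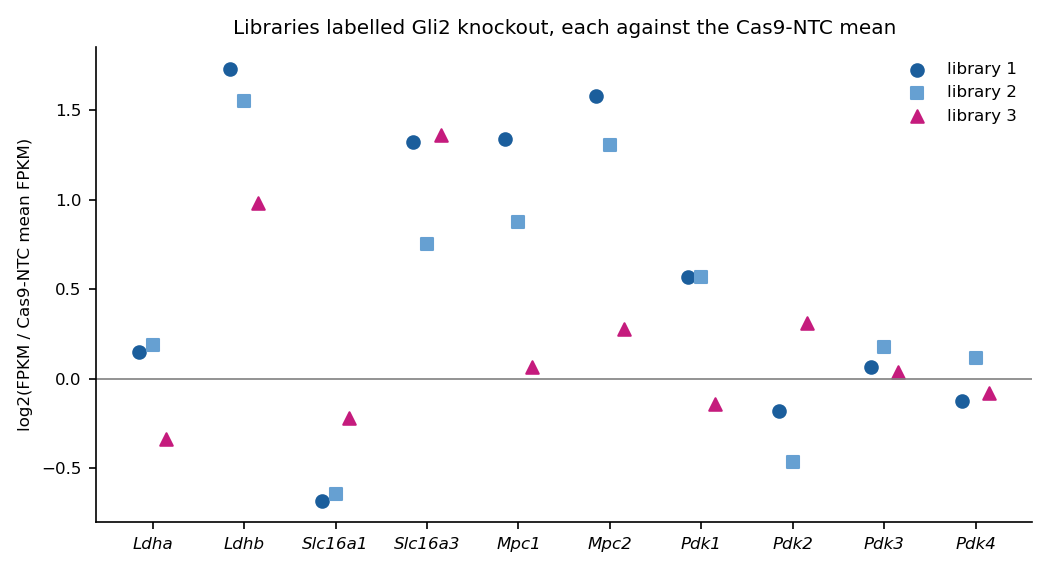
Level of each of the 10 genes in each library labelled Gli2 knockout relative to the Cas9-NTC mean, as log2 of the ratio of FPKM (vertical axis). Symbols are the 3 libraries. Library 3 lies apart from libraries 1 and 2 for Ldha, Ldhb, Slc16a1, Mpc1, Mpc2, Pdk1 and Pdk2, and Slc16a3 rests on 2 to 22 reads per library in these groups.

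Leaving out Ldhb, 8 members entered the test. Among them Pdk4 had at most 5 reads per library in NTC and Gli2CA, so a call between these groups was out of its reach. In Gli2CA against NTC 1 of the 8 was called, Pdk1, where 14.2% of all genes tested were called, 8.45% higher and 5.76% lower. The libraries of these groups did not overlap for 5 of the 8, Ldha, Slc16a1 and Pdk1 being higher and Mpc1 and Pdk3 lower, against 43.7% of all genes, 23.3% higher and 20.4% lower. In the knockout-labelled libraries 2 of the 8 were called, Mpc2 higher and Slc16a1 lower, against 26.8% of all genes, 11.2% higher and 15.7% lower. For these 2 the libraries did not overlap, against 34.9% of all genes, 15.5% higher and 19.4% lower. Tests of the difference between the changes called 3 of the 8, Slc16a1, Mpc1 and Mpc2, against 28.3% of all genes, 16.7% higher and 11.6% lower. The members were picked with these contrasts in view, so nothing is read from these shares. The fit pools the spread of all groups, and the knockout-labelled libraries vary more: their median absolute deviation from the group mean was 0.19, 0.10 and 0.27 on the log2 scale against 0.04 to 0.09 elsewhere. A pooled spread is smaller than that group's own and larger than that of the others. Rescaling FPKM to a common total moved the median log2 change of all genes by about -0.13 in Gli2CA and -0.14 in the knockout-labelled libraries, and took the share of calls that were higher from 59.5 to 33.9% in Gli2CA and from 58.9 to 46.4% for the difference.

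**Figure D3:**
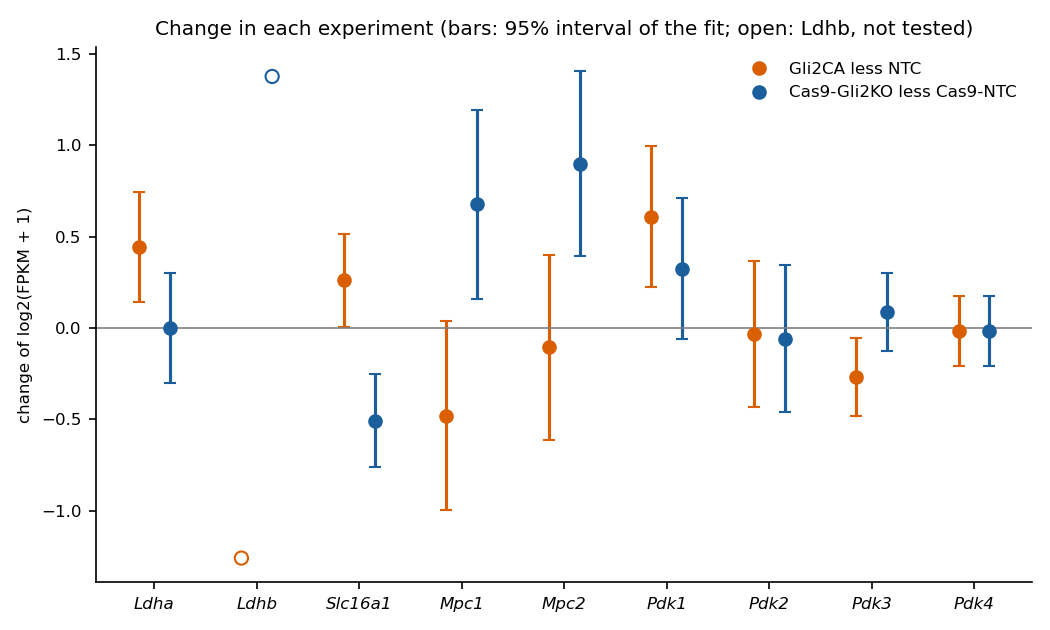
Change of log2(FPKM + 1) (vertical axis) of the 9 members above the filter in each experiment, Gli2CA less NTC and Cas9-Gli2KO less Cas9-NTC. Points are fitted changes, bars their 95% intervals, and open points mark Ldhb, shown without interval since it was not tested. The intervals of Slc16a1, Mpc1 and Mpc2 in the knockout-labelled libraries and of Ldha, Slc16a1, Pdk1 and Pdk3 in Gli2CA do not reach 0, although Mpc1 and, in Gli2CA, all but Pdk1 missed the threshold after adjustment over all genes.

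Ldhb (ENSMUSG00000030246, GRCm38 chromosome 6, 142490249 to 142507957, minus strand) encodes the B subunit, the form that predominates in heart. It lay at 25, 24.6 and 25.6 FPKM in the NTC libraries and at 9.73, 9.51 and 10.5 in Gli2CA. In Cas9-NTC it lay at 19.1, 16.4 and 17.9 FPKM, and in the knockout-labelled libraries at 59.1, 52.2 and 35.1. No library of any group overlapped another group: the order was Gli2CA, Cas9-NTC, NTC and then the knockout-labelled libraries. Means were 25.1 ± 0.533 in NTC and 9.92 ± 0.532 in Gli2CA, a level 2.53-fold lower. They were 17.8 ± 1.36 in Cas9-NTC and 48.8 ± 12.4 in the knockout-labelled libraries, a level 2.74-fold higher, and 3.13-fold higher without library 3. On the scale of log2(FPKM + 1), used for every log2 change here, the changes were -1.26 and 1.38. Cas9-NTC less NTC was -0.48 on that scale. These values chose the gene and carry no test. In bulk RNA, fewer cells of a type and less RNA per cell cannot be told apart.

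Ldha (ENSMUSG00000063229, chromosome 7, 46841475 to 46855627, plus strand) encodes the A subunit, the form that predominates in muscle. It lay at 634, 683 and 675 FPKM in NTC and at 843, 954 and 911 in Gli2CA, so every Gli2CA library was above every NTC library. The log2 change was 0.44 (SE 0.14), 1.36-fold in mean FPKM, and the limma test with Benjamini-Hochberg adjustment over all 11860 genes gave an adjusted p of 0.0531, which missed the threshold of 0.05. A fit of NTC and Gli2CA alone gave an adjusted p of 0.00558 and one with FPKM rescaled to a common total gave 0.0447, so the call depends on these settings. In Cas9-NTC Ldha lay at 721, 661 and 659 FPKM and in the knockout-labelled libraries at 753, 776 and 538, with library 3 below every control library and the other 2 above. The log2 change was 0.00026 (SE 0.14, 95% interval -0.30 to 0.30, adjusted p = 1), and with quantile normalisation it was -0.31 (adjusted p = 0.0186). Without library 3 it was 0.17 (adjusted p = 0.0610). Whether the Ldha changes differed between the experiments did not pass the test either (log2 difference 0.44, 95% interval 0.02 to 0.87, adjusted p = 0.106), although it did without library 3 (0.27, adjusted p = 0.0301) and under both other scalings (0.0161 and 0.00735).

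FPKM is scaled to length, so the subunits are set side by side within a library. The length used was that of all exons of a gene merged, 3310 bases for Ldha and 1570 for Ldhb. Their longest transcripts hold 1815 and 1304 bases, so shares and ratios between genes depend on the length used. Every library had the same lengths. Ldhb made up 3.8, 3.48 and 3.66% of the summed Ldha and Ldhb FPKM in NTC and 1.14, 0.986 and 1.14% in Gli2CA. In Cas9-NTC the share was 2.58, 2.42 and 2.64%, and in the knockout-labelled libraries 7.27, 6.3 and 6.12%. The groups did not overlap, and knockout-labelled library 3, which stood apart in level for both subunits, had a share close to that of library 2. These shares, and the ratios below, hold the Ldhb values that chose the set, so their separation is a description and adds no result. There were 26.5 ± 1.22 Ldha FPKM per Ldhb FPKM in NTC, 91.2 ± 7.94 in Gli2CA, 38.3 ± 1.84 in Cas9-NTC and 14.3 ± 1.38 in the knockout-labelled libraries. The sum of the subunits was 689 ± 26 FPKM in NTC, 913 ± 56.1 in Gli2CA, 698 ± 36 in Cas9-NTC and 738 ± 143 in the knockout-labelled libraries. Ldhb thus stayed a minor part of the summed RNA in all 12 libraries. Near-identical pseudogenes exist for both subunits, 13 for Ldha at 90.7 to 95.9% identity and 1 for Ldhb, Gm5514, at 98% identity over 1002 bases. None of them passed 0.565 FPKM in a library, and Gm5514 did not pass 0.126. How the authors' counting treated reads shared with them is not given in the sources used here.

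**Figure D4:**
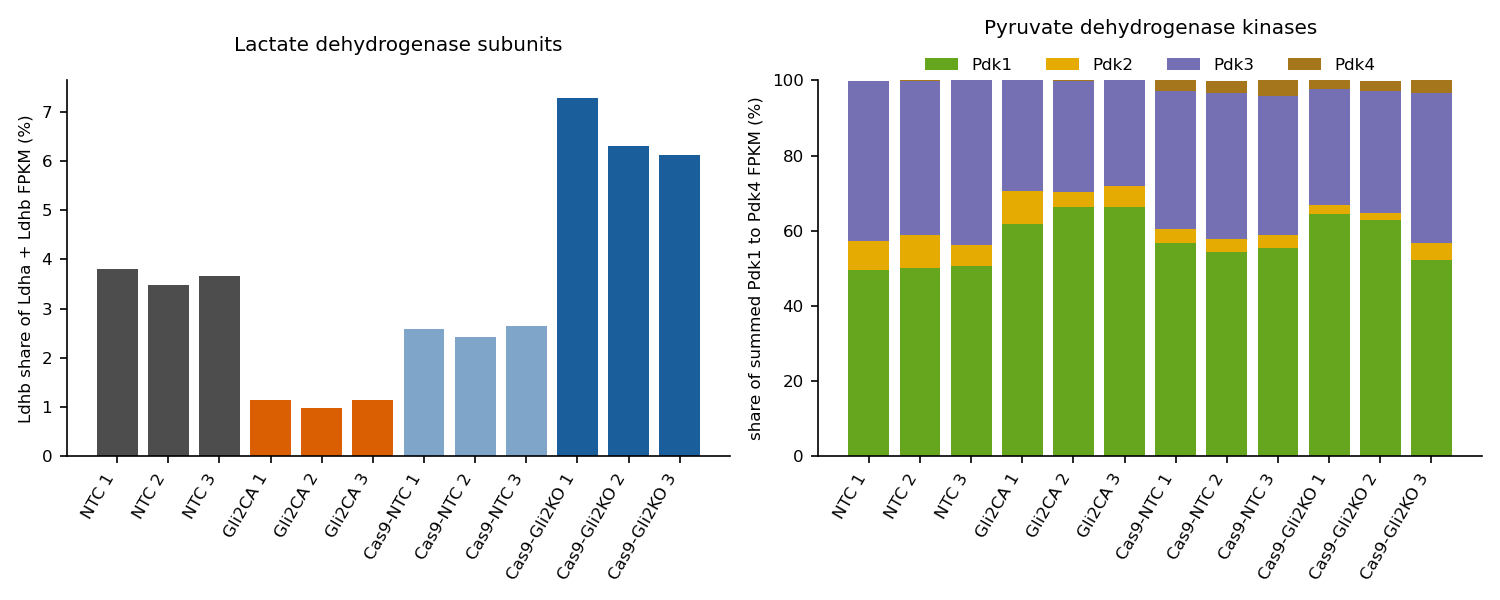
Left, Ldhb as a percentage of summed Ldha and Ldhb FPKM in each of the 12 libraries, on an axis from 0. Right, each kinase as a percentage of summed Pdk1 to Pdk4 FPKM. Ldhb runs from about 1% in Gli2CA to above 6% in the knockout-labelled libraries, and Pdk1 takes 61.8 to 66.2% of kinase FPKM in Gli2CA against 49.5 to 50.5% in NTC.

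Slc16a1 (ENSMUSG00000032902, chromosome 3, 104638668 to 104658462, plus strand) encodes MCT1, a transporter that carries lactate and pyruvate together with a proton in either direction. It was lower in the knockout-labelled libraries than in Cas9-NTC and much higher in Cas9-NTC than in NTC. Its level was 32.5, 35.3 and 33.9 FPKM in NTC and 43.4, 40 and 39 in Gli2CA. In Cas9-NTC it was 73.9, 77.7 and 80.8, and in the knockout-labelled libraries 48.2, 49.6 and 66.5. No groups overlapped, and the order was NTC, Gli2CA, the knockout-labelled libraries and Cas9-NTC. It fell against Cas9-NTC by 0.51 on the log2 scale (SE 0.12, adjusted p = 0.0110 in limma), 0.707-fold in mean FPKM. That call was lost when the Cas9 groups were fitted alone (adjusted p = 0.0962) and without knockout-labelled library 2 (0.0538), and without library 3 the change was -0.65 (adjusted p = 1.1e-05). The log2 change of 0.26 in Gli2CA (SE 0.12) did not pass the test (adjusted p = 0.180). A fit of NTC and Gli2CA alone did call it higher (adjusted p = 0.02125), so that call depends on the spread used. The changes differed between the experiments by 0.77 (SE 0.16, adjusted p = 0.00566), a call lost only when FPKM was rescaled to a common total (0.0544) among 19 alternatives.

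Slc16a3 (ENSMUSG00000025161, chromosome 11, 120948480 to 120960868, plus strand) encodes MCT4, which is known for lactate export and, in human and mouse cells, for induction by hypoxia. It was barely detected, with 2 to 24 reads per library. Its level was 0.107, 0.0664 and 0.281 FPKM in NTC and 0.106, 0.177 and 0.23 in Gli2CA. Cas9-NTC had 0.0222, 0.089 and 0.0941 FPKM, against 0.171, 0.115 and 0.176 in the knockout-labelled libraries. The Gli2CA and NTC libraries overlapped, while the knockout-labelled libraries all lay above Cas9-NTC. Two-sided exact permutation tests gave p = 0.9 for the first comparison and p = 0.1 for the second, the smallest that 3 against 3 libraries can give. With 2 reads in the first Cas9-NTC library, whose 95% Poisson interval was 0.00269 to 0.0802 FPKM and covers counting error only, a change of this size rests on few reads. Slc16a1 made up 99.2% or more of the summed FPKM of the transporters in every library.

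Bsg and Emb encode basigin and embigin, the membrane partners that bring monocarboxylate transporters to the cell surface. Both were called in Gli2CA, in opposite directions, and neither was called in the knockout-labelled libraries in the fit used here. Other settings did call them there: Bsg lower with FPKM rescaled to a common total (-0.26, adjusted p = 0.0329) and with quantile normalisation (-0.43, 0.00515), and Emb higher with a pseudocount of 0.1 (0.65, 0.0160). Bsg went from 488 ± 14.9 FPKM in NTC to 700 ± 29.8 in Gli2CA (log2 change 0.52, SE 0.11, adjusted p = 0.00824). It was 572 ± 21 in Cas9-NTC and 544 ± 76 in the knockout-labelled libraries (log2 change -0.08, adjusted p = 0.588). Emb went from 7.92 ± 1.5 to 4.04 ± 0.246 FPKM in Gli2CA (log2 change -0.81, SE 0.12, adjusted p = 0.000614). It was far lower in the Cas9 groups, at 0.552 ± 0.0621 and 0.923 ± 0.141 (log2 change 0.31, adjusted p = 0.0660). Of the 11 further lactate genes listed, these were the only 2 above the filter, and the testis form Ldhc, the D-lactate dehydrogenase Ldhd and the transporters Slc16a7 and Slc16a8 were among those not above it.

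Mpc2 (ENSMUSG00000026568, chromosome 1, 165460637 to 165481214, plus strand) encodes a subunit of the mitochondrial pyruvate carrier. It rose in the knockout-labelled libraries and did not pass the test in Gli2CA. Its level was 5.3, 5.68 and 6.84 FPKM in NTC, 5.03, 6.1 and 5.21 in Gli2CA and 3.79, 3.75 and 3.76 in Cas9-NTC. In the knockout-labelled libraries it was 11.3, 9.29 and 4.56, so all lay above Cas9-NTC but library 3 was 1.21-fold higher where library 1 was 2.99-fold higher. The log2 change there was 0.90 (SE 0.23, limma adjusted p = 0.0178), and 1.24 without library 3 (adjusted p = 5.17e-06). That call was lost in 6 of 14 alternatives, including the fit of the Cas9 groups alone (adjusted p = 0.128) and the omission of any of the 3 Cas9-NTC libraries or of knockout-labelled library 1 or 2 (0.0517 to 0.0760). In Gli2CA the log2 change was -0.10 (adjusted p = 0.847). The difference between the changes was -1.004 (SE 0.32, adjusted p = 0.0400) and was lost in 13 of 19 alternatives, with adjusted p up to 0.0970.

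Mpc1 (ENSMUSG00000023861, chromosome 17, 8282904 to 8297661, plus strand) encodes the other subunit, the partner of Mpc2 in the heterodimer. Its level was 6.42, 8.37 and 6.04 FPKM in NTC and 3.94, 5.39 and 4.72 in Gli2CA, with every Gli2CA library below NTC. Cas9-NTC had 6.01, 5.28 and 5.34 FPKM, against 14, 10.2 and 5.8 in the knockout-labelled libraries, where library 3 lay within the control range. Neither change passed the test: the log2 change was -0.48 (SE 0.24, adjusted p = 0.233) in Gli2CA and 0.68 (SE 0.24, adjusted p = 0.0533) in the knockout-labelled libraries, and without library 3 of these it was 0.99 (adjusted p = 0.000196). The Gli2CA change did pass with FPKM rescaled to a common total (-0.62, adjusted p = 0.0422). The difference between them passed it, at -1.16 (SE 0.33, adjusted p = 0.0249), and was lost in 7 of 19 alternatives (adjusted p up to 0.0643).

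Mpc1 is uncertain because it shares sequence with a pseudogene, and how shared reads were counted is not known here. Mpc1-ps, chosen for mention after its values were seen, is identical to Mpc1 over 261 aligned bases and was listed at 7.32 ± 3.55 FPKM in NTC, 3.16 ± 1.14 in Gli2CA, 3.63 ± 1 in Cas9-NTC and 10.9 ± 5.5 in the knockout-labelled libraries, from 13 to 129 reads per library. Scaled to library size as RPM, the reads of both together came to 16.9 ± 3.77 in NTC and 10.8 ± 1.74 in Gli2CA. They came to 12.7 ± 0.534 in Cas9-NTC and 24.4 ± 10.3 in the knockout-labelled libraries, and the order of the groups was that of Mpc1 alone. An antisense gene, 4930506C21Rik, overlaps Mpc1 over 480 exon bases and averaged 0.0584 FPKM over the 12 libraries. Mpc1 per Mpc2 was 1.19 ± 0.295 in NTC, 0.858 ± 0.0656 in Gli2CA, 1.47 ± 0.0999 in Cas9-NTC and 1.2 ± 0.0955 in the knockout-labelled libraries. This ratio depends on the merged exon lengths used, 2082 bases for Mpc1 and 7344 for Mpc2.

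The kinases are described in turn. Pdk1 (ENSMUSG00000006494, chromosome 2, 71873224 to 71903858, plus strand), the form known for induction by HIF-1, was the only one called in Gli2CA. It lay at 19, 23.3 and 21.3 FPKM in NTC and at 29, 36.7 and 33.1 in Gli2CA, without overlap. The log2 change was 0.61 (SE 0.18, limma adjusted p = 0.0403), 1.55-fold in mean FPKM. That call was lost in 7 of 14 alternatives: the omission of any 1 of the 6 libraries (adjusted p 0.0544 to 0.150) and the removal of the filter on low values (0.0804). In Cas9-NTC Pdk1 lay at 27.7, 24.5 and 22.9 FPKM and in the knockout-labelled libraries at 37.1, 37 and 22.7, library 3 again below every control library. The log2 change was 0.32 (SE 0.18, adjusted p = 0.168), and without that library 0.55 (adjusted p = 0.00113). The changes did not pass a test of their difference (0.28, 95% interval -0.26 to 0.83, adjusted p = 0.393).

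Pdk3 (ENSMUSG00000035232, chromosome X, 93764607 to 93832201, minus strand), a form little inhibited by pyruvate, was near Pdk1 in FPKM. It lay at 16.4, 19 and 18.4 FPKM in NTC and at 13.8, 16.4 and 14 in Gli2CA. It lay at 17.9, 17.5 and 15.2 in Cas9-NTC and at 17.7, 19.1 and 17.3 in the knockout-labelled libraries. The log2 change of -0.27 in Gli2CA did not pass the test (SE 0.10, adjusted p = 0.0998) but did with FPKM rescaled to a common total (-0.42, adjusted p = 0.0419). The change of 0.09 in the knockout-labelled libraries did not pass it (adjusted p = 0.486) and was -0.08 with that rescaling. There were 1.18 ± 0.0404 Pdk1 FPKM per Pdk3 FPKM in NTC, 2.23 ± 0.131 in Gli2CA, 1.48 ± 0.0765 in Cas9-NTC and 1.78 ± 0.417 in the knockout-labelled libraries. This ratio, like the kinase shares, depends on the merged exon lengths used, 7779 bases for Pdk1 and 2561 for Pdk3. The sum of the 4 kinases was 42.3 ± 4 FPKM in NTC, 50.8 ± 4.35 in Gli2CA, 45.1 ± 3.76 in Cas9-NTC and 53.4 ± 8.54 in the knockout-labelled libraries. NTC and Gli2CA did not overlap in this sum, and the Cas9 groups did.

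Pdk2 and Pdk4 separated the lines rather than the Gli2 groups. Pdk2 (ENSMUSG00000038967, chromosome 11, 95026258 to 95041354, minus strand), a widely expressed form, lay at 3.02, 4.04 and 2.44 FPKM in NTC and 4.08, 2.32 and 2.85 in Gli2CA. It lay at 1.85, 1.55 and 1.5 in Cas9-NTC and 1.44, 1.18 and 2.02 in the knockout-labelled libraries. Groups within an experiment overlapped, and all 6 Cas9 libraries lay below the other 6. Pdk4 (ENSMUSG00000019577, chromosome 6, 5483351 to 5496309, minus strand), which is known for induction by fasting in liver, heart and muscle, had 0, 5 and 0 reads in NTC and 0, 3 and 0 in Gli2CA. A count of 0 there allows up to 0.0535 FPKM, taken at 3 reads in the shallowest library. It had 83, 128 and 162 reads in Cas9-NTC, a level of 1.54 ± 0.209 FPKM, and 114, 133 and 120 in the knockout-labelled libraries, a level of 1.51 ± 0.135. Neither gene passed the test within an experiment (adjusted p 0.828 to 0.952), with 95% intervals of the log2 change that reached from -0.46 to 0.37 for Pdk2 and from -0.21 to 0.18 for Pdk4. For Pdk4 in Gli2CA against NTC that outcome was fixed in advance. With so few reads the log2(FPKM + 1) scale leaves no room for a change, so nothing is read from that test.

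The control lines differed at more genes than either group did from its own control. Pdk4 is left out of the counts here, since it passed the filter only through the groups in which it was high, and its levels are given above without a test. Of the other 7 members tested, Slc16a1 was higher and Pdk2 lower in Cas9-NTC than in NTC, where 48.9% of all genes tested were called, 24.0% higher and 24.9% lower. Slc16a1 was 2.29-fold higher in mean FPKM (log2 change 1.17, SE 0.12, adjusted p = 5.53e-06). Pdk2 was 0.515-fold (log2 change -0.65, SE 0.18, adjusted p = 0.0116), a call lost without NTC replicate 2 (0.0529). Mpc2 was not called but was lower in limma with the controls fitted alone (-0.54, adjusted p = 0.00134). It was also called lower with FPKM rescaled to a common total (-0.51, adjusted p = 0.0256). Ldha was nearly level (log2 change 0.03, 95% interval -0.26 to 0.33, adjusted p = 0.854). The libraries did not overlap for Slc16a1, Mpc1, Mpc2 and Pdk2 among the 7, against 69.4% of all genes, 34.5% higher and 34.9% lower. These lines differ in Cas9, in blasticidin and in the Sox10 level given above, which cannot be told apart here.

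Upstream of pyruvate, of 21 glycolysis enzymes, 16 were measured, of which 10 were higher and 1 lower in Gli2CA, against 8.45% higher and 5.76% lower over all genes. The median log2 change was 0.48 against 0.00 over all genes. Hk2, an inducible hexokinase that traps glucose in the cell, rose from 2.5 ± 0.18 to 6.6 ± 0.488 FPKM (log2 change 1.12, SE 0.24, adjusted p = 0.00890). Eno3, the muscle enolase, was the 1 that fell, from 17.8 ± 1.38 to 8.95 ± 1.08 FPKM (log2 change -0.92, SE 0.12, adjusted p = 0.000295). The count of higher genes was 5 with FPKM rescaled to a common total, 3 with quantile normalisation and 12 in a fit of the groups alone. Slc2a1, the GLUT1 glucose transporter, rose from 56 ± 4.34 to 113 ± 2.46 FPKM (log2 change 0.998, SE 0.13, adjusted p = 0.000331), and 2 of the 9 measured genes of glucose transport and flux control were higher and 2 lower. Of the lower genes, Slc2a10 passed the filter only through NTC, where it was high, so nothing is read from its call.

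In the knockout-labelled libraries 0 of the 16 glycolysis enzymes were higher and 9 were lower (0 and 10 at an unadjusted p under 0.05 in limma), against 11.2% higher and 15.7% lower over all genes. The median log2 change was -0.43 against -0.01 over all genes. Hk2 fell from 4.98 ± 0.709 to 2.85 ± 1.81 FPKM (log2 change -0.73, SE 0.24, adjusted p = 0.0458). Hk1, the constitutive hexokinase, fell from 50.2 ± 2.69 to 25 ± 15.7 (log2 change -1.14, SE 0.31, adjusted p = 0.0221). A fit of the Cas9 groups alone called 0 of the 16 in either direction, so these calls rest on the pooled spread, and without library 3 the counts were 1 higher and 10 lower. Slc2a1 fell from 71.9 ± 1.39 to 38.3 ± 8.27 FPKM (log2 change -0.91, SE 0.13, adjusted p = 0.000834). It was the 1 gene called lower of the 9 measured for glucose transport and flux control. Another 2 of these were called higher, Slc2a10 (log2 change 0.60, adjusted p = 0.00234) and Pfkfb1 (0.46, adjusted p = 0.0216). Slc2a10 passed the filter only through NTC and lay at 0.0552 to 0.149 FPKM in Cas9-NTC and 0.405 to 0.822 in the knockout-labelled libraries. Pfkfb1 passed it only through the knockout-labelled libraries, where it was high, so nothing is read from these 2 calls. The median of that list was 0.03. The changes of glycolysis enzymes differed between the experiments for 13 of 16 genes, 12 of them in the direction of higher in Gli2CA, against 28.3% of all genes, 16.7% in that direction.

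Genes known to be induced by hypoxia outside glycolysis were measured for 13 of 14. In Gli2CA 8 were higher and 0 lower (10 and 0 at an unadjusted p under 0.05 in limma), against 8.45% and 5.76% of all genes, with a median log2 change of 0.79. In the knockout-labelled libraries 0 were higher and 5 lower (1 and 5 unadjusted), against 11.2% and 15.7% of all genes, with a median of -0.05. Without library 3 the latter counts were 6 higher and 5 lower. Ndrg1, a stress-induced gene, rose from 5.8 ± 0.353 to 14.9 ± 0.196 FPKM in Gli2CA (log2 change 1.22, SE 0.08, adjusted p = 2.17e-06) and fell from 17.1 ± 0.43 to 8.1 ± 0.767 in the knockout-labelled libraries (log2 change -0.999, SE 0.08, adjusted p = 1.61e-05). Car9, which encodes carbonic anhydrase 9, a surface enzyme that handles acid, was 0.844 ± 0.388 FPKM in NTC and 1.14 ± 0.194 in Gli2CA (adjusted p = 0.423). It fell from 9.91 ± 1.45 in Cas9-NTC to 1.5 ± 0.228 (log2 change -2.12, SE 0.16, adjusted p = 9.85e-06). Among 9 measured oxygen-sensing genes 2 were higher in Gli2CA, and 1 was higher and 3 lower in the knockout-labelled libraries, beside the same shares of all genes. The 3 were 6 without library 3 and 1 under either other scaling or with the Cas9 groups alone, and the 2 in Gli2CA were 1 under either other scaling and 3 with the groups alone. Egln1, the prolyl hydroxylase that marks HIF for destruction in oxygen, was called in both, at 0.50 (SE 0.13, adjusted p = 0.0269) and -0.41 (SE 0.13, adjusted p = 0.0413).

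Downstream of pyruvate, of 8 measured genes of the pyruvate dehydrogenase complex and its phosphatases, 1 was higher in each experiment, against 8.45% of all genes in Gli2CA and 11.2% in the knockout-labelled libraries. In Gli2CA the counts were 0 higher and 2 lower with FPKM rescaled to a common total and 0 with quantile normalisation. Those of the knockout-labelled libraries were 5 higher and 1 lower without library 3, and 0 with the Cas9 groups alone or FPKM rescaled. Pdp1, the phosphatase that undoes the work of the kinases, went from 14.4 ± 0.979 to 20.2 ± 1.01 FPKM in Gli2CA (log2 change 0.46, SE 0.14, adjusted p = 0.0487). Pdha1, the subunit the kinases act on, went from 33 ± 0.775 to 40.6 ± 4.84 in the knockout-labelled libraries (log2 change 0.29, SE 0.09, adjusted p = 0.0372). Of 15 tricarboxylic acid cycle genes 0 were called in Gli2CA and 3 were higher in the knockout-labelled libraries. These were Idh3a, Suclg1 and Fh1. Suclg1, a subunit of succinyl-CoA ligase, went from 21.4 ± 0.61 to 33 ± 8.21 FPKM (log2 change 0.57, SE 0.15, adjusted p = 0.0194), and Fh1, fumarate hydratase, from 36.8 ± 1.18 to 61 ± 14.6 (log2 change 0.69, SE 0.15, adjusted p = 0.00863). A fit of the Cas9 groups alone called 0 of the 15, and without library 3 the counts were 8 higher and 3 lower. At an unadjusted p under 0.05, limma gave 1 lower and 0 higher in Gli2CA. The count of 0 there stands against 1 lower in a fit of the groups alone and 2 lower with FPKM rescaled. Among 15 measured genes of other routes of pyruvate 2 were higher and 2 lower in Gli2CA, and 0 and 3 with FPKM rescaled. The knockout-labelled libraries gave 1 lower. Without library 3 the counts were 1 higher and 6 lower, and the Cas9 groups alone gave 0. Over all genes 5.76% were lower in Gli2CA and 15.7% in the knockout-labelled libraries.

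Regulators of fuel choice gave 1 higher of 12 measured in Gli2CA, against 8.45% of all genes higher and 5.76% lower. They gave 5 lower in the knockout-labelled libraries, against 11.2% of all genes higher and 15.7% lower. There the Cas9 groups alone gave 1 lower, and the omission of library 3 gave 2 higher and 7 lower. Txnip, which restrains glucose uptake, rose from 1.96 ± 0.315 to 6.17 ± 0.148 FPKM in Gli2CA (log2 change 1.28, SE 0.11, adjusted p = 1.25e-05). It was 1.63 ± 0.332 in Cas9-NTC and 1.77 ± 0.187 in the knockout-labelled libraries (log2 change 0.08, adjusted p = 0.582).

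The named genes around the branch point were not equally firm. With each pair of groups fitted alone, Slc2a1, Ndrg1 and Car9 were still called lower in the knockout-labelled libraries (adjusted p = 0.0328, 0.00573 and 0.00252). The calls of Hk1, Hk2, Egln1, Pdha1, Suclg1 and Fh1 there were lost in that fit (adjusted p 0.0916 to 0.193), and those of Hk1, Hk2, Egln1 and Pdha1 also on omission of any Cas9-NTC library. The Pdha1 call was lost as well with FPKM rescaled to a common total (adjusted p = 0.611), with quantile normalisation (0.101), with library weights (0.198) and with the replicate block (0.0566). Without library 3 all 9 of these genes were called in the same direction, and Pdp1 was called higher as well (log2 change 0.29, adjusted p = 0.0187). In Gli2CA the calls of Pdp1 and Egln1 were lost on omission of any of the 6 libraries (adjusted p 0.0596 to 0.156), while those of Slc2a1, Hk2, Eno3, Bsg, Emb, Ndrg1 and Txnip held in every alternative run.

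**Figure D5:**
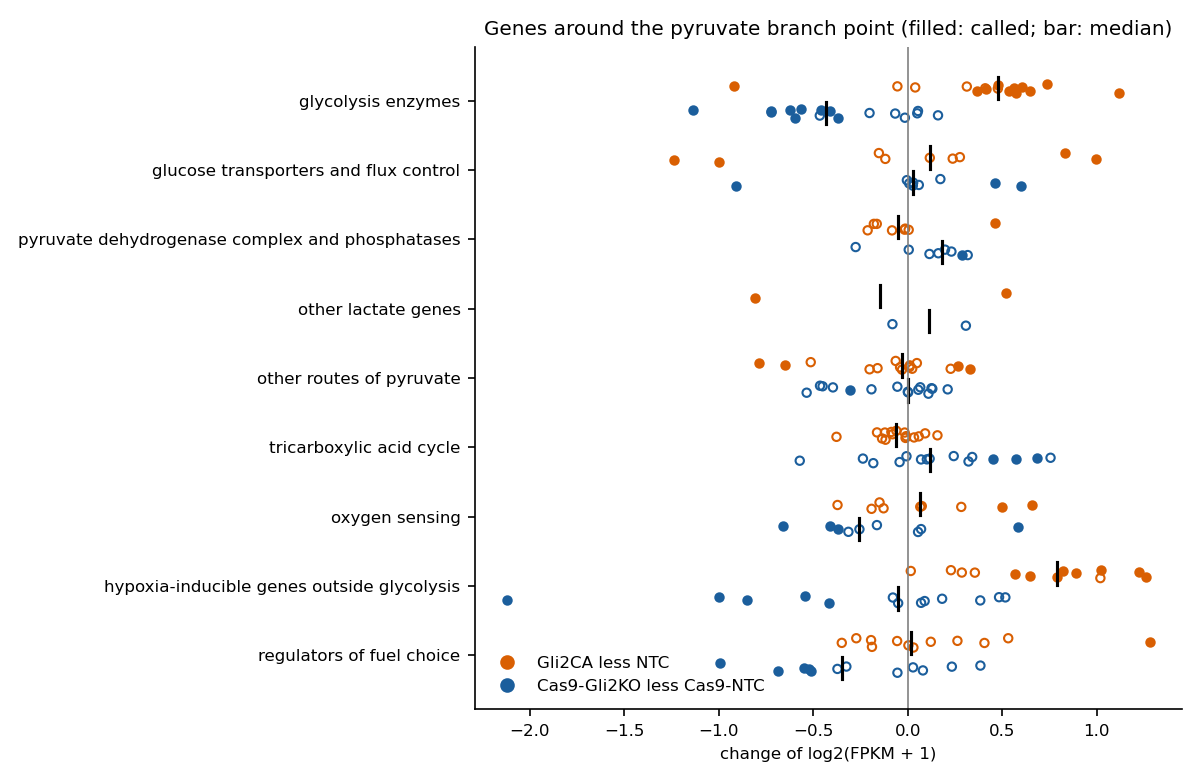
Change of log2(FPKM + 1) (horizontal axis) of each measured gene of 9 lists around the pyruvate branch point, with Gli2CA less NTC above and Cas9-Gli2KO less Cas9-NTC below in each row. Points are genes, filled where the adjusted p was under 0.05, and the short bar is the list median. Glycolysis enzymes have medians of 0.48 and -0.43, and hypoxia-inducible genes outside glycolysis 0.79 and -0.05.

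Predicted, clone-named, Riken, pseudogene, mitochondrial and unnamed genes were left out of this search. Of the rest, the genes whose pattern over the 12 libraries was most like that of Ldhb were Pclaf, Sapcd2, Pot1a, Fignl1 and Tdg, by Pearson correlation of log2(FPKM + 1). The correlations were 0.986, 0.979, 0.979, 0.978 and 0.976 over 12 libraries that fall into 4 groups, and are a description. Pclaf, which encodes a partner of the replication clamp PCNA, lay at 38.8 ± 1.34 FPKM in NTC, 21.9 ± 0.545 in Gli2CA, 29.5 ± 1.64 in Cas9-NTC and 59.7 ± 15.7 in the knockout-labelled libraries. Tdg, which encodes thymine DNA glycosylase, lay at 13.3 ± 0.465, 9.55 ± 0.578, 11.7 ± 0.139 and 16.3 ± 0.886 in the same order. Both had the group order of Ldhb. Among the other members Mpc1 had the highest correlation with Ldhb, at 0.86 and rank 292 of all genes tested, with none left out, followed by Pdk3 at 0.70 and Mpc2 at 0.61. The lowest were Ldha and Pdk2, at -0.50 and -0.51.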

How the data were processed

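The authors deposited FPKM values, which divide reads by gene length and by library total, for 54532 Ensembl genes in 12 libraries; aligner, counter, build and use of strand are not stated in the labels. Per the labels' protocols, RNA was purified with RNeasy columns, selected for poly(A) and prepared with NEBNext Ultra II. GENCODE M21 (GRCm38) matched 54409 IDs, and 28400 were at 0 throughout. With its exon lengths, 97.8 to 98.4% of values up to 20 reads were whole reads within 0.02, which gave depth. Poisson intervals (95%) and the limit of 3 reads cover counting error only.

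The test was limma 3.58.1 (R 4.3.3) on log2(FPKM + 1) of all groups in 1 fit, with 8 residual degrees of freedom, for the 11860 genes that reached 1 FPKM in 3 or more libraries. A gene was called where its 2-sided p, adjusted after Benjamini and Hochberg, was under 0.05. Slc16a3, below the filter, was given an exact permutation test. A pseudocount of 1 understates the change of low genes. The procedure was tested on simulated data with the pooled spread, which does not model the wider spread of the knockout-labelled libraries. Copies of a gene (at least 90% identity over 200 bases) were found with BLAST+ 2.17.0. Tables and plots used matplotlib 3.10.9, scipy 1.17.1, numpy 2.4.6, pandas 2.3.3 and Python 3.11.15.

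The members and the gene lists were chosen with earlier results of these data known. Members are all described. The rule for other genes admits called list genes, and the 14 followed through the alternatives are a subset picked after their values were seen. The printed promoters, the motifs and the list counts under other settings were picked in the same way. Slc2a10, Pfkfb1 and Idh3a are named beside that subset as further calls. Alternatives changed the pseudocount, filter, scaling, library weights, fitted groups, replicate block and each library in turn. A further allele of the cell lines and 1 marker list are not reported here.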

Additional observations from a re-analysis of the deposited data

Results flagged for a closer look

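For Ldhb every Gli2CA library lay below NTC and every knockout-labelled library above Cas9-NTC, and the changes differed by -2.63 on the log2 scale, a difference that chose the gene and was not tested. Only the members and the list genes followed through the alternatives were looked at here, so other called list genes, such as Ero1l and Me1, are left out. Each of the following was singled out because the limma test of the difference, the change in Gli2CA less that in the knockout-labelled libraries, had an adjusted p under 0.05 over 11860 genes.

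Among the members, the difference was 0.77 for Slc16a1 (adjusted p = 0.00566), -1.16 for Mpc1 (0.0249) and -1.004 for Mpc2 (0.0400). Mpc1 shares sequence with Mpc1-ps. In glucose uptake and glycolysis it was 1.91 for Slc2a1 (adjusted p = 2.92e-05), 1.85 for Hk2 (0.00244), 1.55 for Hk1 (0.0222) and -0.97 for Eno3 (0.00163). Of 9 measured genes of glucose transport and flux control, 2 differed in the direction of Slc2a1 and 3 the other way. Those 3 were Slc2a6 (-1.24), Slc2a10 and Pfkfb1, the last 2 with the limit on the filter given above. The transporter partners differed by 0.60 for Bsg (adjusted p = 0.0157) and -1.12 for Emb (0.000524). In the tricarboxylic acid cycle the difference was -0.69 for Suclg1 (adjusted p = 0.0324) and -1.06 for Fh1 (0.00372).

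Among oxygen-related genes it was 2.35 for Car9 (adjusted p = 2.52e-05), 2.22 for Ndrg1 (4.17e-07) and 0.91 for Egln1 (0.00455), and for Txnip it was 1.20 (0.000203). Without knockout-labelled library 3 the 15 tested differences kept their sign and stayed past the threshold. Other alternatives of the 19 lost some of them: Mpc2 in 13 (adjusted p up to 0.0970), Suclg1 in 11 (0.0520 to 0.0792), Mpc1 in 7 (up to 0.0643), Hk1 in 6 (0.0509 to 0.0577) and Slc16a1 in 1 (0.0544).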

How the results depend on the processing

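In Gli2CA against NTC 1685 genes were called, 2916 with the groups fitted alone and 5111 with library weights. The knockout-labelled libraries gave 3182 calls, 762 with the groups alone, 6223 with weights and 1338 (without knockout-labelled replicate 2) to 7793 (without replicate 3) with 1 library left out. Leaving out replicate 1 of that group or any Cas9-NTC library gave 1447 to 1693 calls. The controls gave 5798 calls and 8718 with weights. The difference of the changes gave 3356 calls, 6525 with weights and 2373 to 7535 with 1 library left out, the same libraries setting the ends. The weights did not converge (1.29e-09 for knockout-labelled replicate 2), so these values have little weight. Same-numbered libraries had correlations of deviations from -0.37 to 0.25, which do not settle whether the numbers pair the libraries. With a replicate block the counts were 1475, 2874, 5690 and 3100. Among single genes and lists, 1320 of 1601 values stayed the same. For tested genes this means direction and side of the threshold, and for list counts and Ldhb a shift within a set bound. Of the others 122 lost a call, 48 gained one, 67 list counts or Ldhb changes moved and 44 changed sign. The cause was not tested. Sign changes, all in log2, came with FPKM rescaled to a common total in the knockout-labelled libraries for Ldha (-0.18), Pdk3 (-0.082), Eno3 (-0.13), Pdp1 (-0.048) and Txnip (-0.031). With quantile normalisation they came there for Ldha (-0.31) and Eno3 (-0.011). Egln1 between the controls was 0.021 rescaled, 0.10 with quantile normalisation and 0.023 with weights. Pdk4 was 0.0042 with weights in Gli2CA, and its difference 0.0026 with a pseudocount of 5, 0.10 rescaled and 0.074 with weights. With 1 library left out, Gli2CA changes ranged from -0.20 to 0.11 for Pdk2, -0.039 to 0.022 for Pdk4 and -0.040 to 0.0060 for Pdha1. In the knockout-labelled libraries they ranged from -0.095 to 0.17 for Ldha, -0.19 to 0.047 for Pdk2, -0.058 to 0.052 for Pdk4, -0.14 to 0.041 for Bsg, -0.019 to 0.18 for Eno3 and -0.051 to 0.29 for Pdp1. Between controls they ranged from -0.0072 to 0.057 for Ldha and -0.039 to 0.0097 for Egln1, and for the difference from -0.14 to 0.17 for Pdk2 and -0.069 to 0.042 for Pdk4. Depth limits Slc16a3, with 2 to 24 reads per library, and Pdk4 in NTC and Gli2CA, with 0 to 5.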
